A study of Mus musculus with 12 samples.

Results

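The interleukin 1 family and its receptors were examined in mouse glomeruli exposed to TNF, with the probe sets annotated to 8 named genes (Il1a, Il1b, Il1rn, Il33, Il1r1, Il1r2, Il1rl1 and Il1rap). Of these genes, 7 had a probe set with a single gene symbol in the annotation used, 14 probe sets in all, and they are 7 of the 18194 genes tested on the array. The transcript level of Il1rl1, which encodes the receptor for IL-33, was not analysed here. Each gene was described by its lead probe set, the one with the highest mean over the 12 arrays. Loss of TNF receptor 1 went with lower Il1b and Il1rn transcript, while loss of TNF receptor 2 alone changed none of the 7 genes beyond the threshold.

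Interleukin 1 alpha and interleukin 1 beta are the 2 agonist ligands of the family. Both bind the receptor IL-1R1, which then recruits the accessory protein IL-1RAP and signals through MyD88 and IRAK kinases to NF-κB, the same transcription factor that TNF activates. The receptor antagonist encoded by Il1rn occupies IL-1R1 without signalling, IL-1R2 binds ligand as a decoy, and IL-33 is an alarmin stored in the nucleus that signals through its own receptor together with IL-1RAP. In the kidney, IL-1 is known as a driver of inflammation in glomerulonephritis, and blockade of IL-1 limits experimental disease.

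Glomeruli were isolated with paramagnetic beads from male mice aged 6 to 8 weeks of 4 genotypes. The paper names the wildtype mice C57BL/6J and the mutant strains as B6 lines with another donor strain. After serum starvation each culture of 5000 glomeruli was kept with recombinant TNF at 50 ng/ml, for 12 hours. *Tnfr1*-/- mice carried the Tnfrsf1atm1Mak allele, *Tnfr2*-/- mice the Tnfrsf1btm1Mwm allele and *Tnfr1,2*-/- mice both. The double-deficient and the wildtype mice came from crossing the single mutants. Both are germline deletions, so every cell type of the glomerulus lacked the receptor. RNA of 3 separate preparations per genotype was hybridised, giving 12 arrays. All 4 groups were exposed to TNF and cultures without TNF were not analysed here. The comparisons therefore set genotypes side by side under TNF, and none measures induction by TNF.

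Values are log2 signals after robust multichip averaging, and the medians of the 12 arrays lay between 5.59 and 5.64. Tnfrsf1a signal, the check of the *Tnfr1* deletion, averaged 10.56 ± 0.28 in wildtype and 10.73 ± 0.12 in *Tnfr2*-/- glomeruli, against 9.74 ± 0.47 in *Tnfr1*-/- and 9.29 ± 0.28 in *Tnfr1,2*-/- glomeruli (SD, n = 3). Tnfrsf1b signal averaged 7.63 ± 0.20 in wildtype and 7.48 ± 0.81 in *Tnfr1*-/- glomeruli, against 5.33 ± 0.36 in *Tnfr2*-/- and 5.48 ± 0.10 in *Tnfr1,2*-/- glomeruli, so both means were lower where the deletion was labelled. In limma, Tnfrsf1a changed from wildtype by -1.27 in *Tnfr1,2*-/- (adjusted p = 0.0228) and by -0.82 in *Tnfr1*-/- glomeruli (adjusted p = 0.217). Tnfrsf1b changed by -2.15 in *Tnfr1,2*-/- (adjusted p = 0.00616) and by -2.3 in *Tnfr2*-/- glomeruli (adjusted p = 0.125). Neither single-mutant change passed the threshold. Where the probes lie relative to the deleted exons was not analysed here. The markers of endothelium (8 of 8 measured), podocytes (5 of 5) and mesangial and smooth muscle cells (6 of 6) all had a mean of at least 6, against 10 of 12 for macrophages, 3 of 8 for tubular epithelium, 3 of 7 for lymphocytes, 1 of 7 for mast cells and basophils and 0 of 7 for neutrophils. The arrays fell into 2 sets by the gap between the 3′ and the 5′ probe sets of beta-actin, a sign of RNA quality: 7 arrays with a log2 gap of 0.667 to 1 and 5 arrays (the replicate 3 array of every genotype, and replicate 2 of *Tnfr1,2*-/-) with a gap of 1.82 to 2.3. At a given genotype, the second set differed from the first by -0.57 for Il1rn (95% confidence interval -0.84 to -0.29, adjusted p = 0.00589) and by 0.42 for Il1a (0.12 to 0.72, adjusted p = 0.037), so their values are also given within sets. This set difference had an adjusted p under 0.05 for 5315 of the 18194 genes tested, so it is not particular to these 2 members. *Tnfr1,2*-/- has more arrays in the second set than the other genotypes, and the reported fit has no block for the set.

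Because Il1b and Il1rn were the members with a called change, the stretch upstream of their annotated starts is shown, from RefSeq (GRCm38.p6), 5′ to 3′ on the strand of the gene. Both genes lie on chromosome 2, as does Il1a, away from the targeted loci on chromosomes 6 (Tnfrsf1a) and 4 (Tnfrsf1b). The Il1b stretch covers positions -250 to -26 (chr2:129371165-129371389, minus strand), since the annotated gene extends 25 bases beyond the start used. The Il1rn stretch covers positions -250 to -1 of the first of its 3 annotated windows (chr2:24336610-24336859, plus strand). Capitals mark matches to TATAA in both genes and to TGANTCA, the AP-1 motif, in Il1rn.
Il1b: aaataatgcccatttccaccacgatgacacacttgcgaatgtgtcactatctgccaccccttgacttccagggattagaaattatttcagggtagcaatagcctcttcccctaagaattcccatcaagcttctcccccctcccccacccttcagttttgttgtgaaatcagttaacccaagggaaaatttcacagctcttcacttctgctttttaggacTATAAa
Il1rn: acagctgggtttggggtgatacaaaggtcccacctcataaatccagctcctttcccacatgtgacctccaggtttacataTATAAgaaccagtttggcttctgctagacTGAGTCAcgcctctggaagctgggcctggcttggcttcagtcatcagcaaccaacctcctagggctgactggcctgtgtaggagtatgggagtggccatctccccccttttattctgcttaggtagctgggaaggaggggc

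The 250 bases before each annotated start were searched on both strands for the NF-κB consensus, for TGANTCA, for the C/EBP motif TTGCNNAA and for TATAA. The 8 genes had 13 such windows, of which 1 held the NF-κB consensus (Il1r1), 2 held TGANTCA (Il1a and Il1rn), 3 held TTGCNNAA (Il1r1, Il1rl1 and Il33) and 5 held TATAA (Il1a, Il1b, Il1rn and both windows of Il33). Of all 32851 windows of this length, 7.25% held the NF-κB consensus, 6.75% TGANTCA, 9.56% TTGCNNAA and 22.8% TATAA. The AP-1 motif reads the same on both strands, so each of its matches was found on both; shares count windows, not matches. A match describes the letters of these windows only, and sites farther away were not searched.

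**Figure D1:**
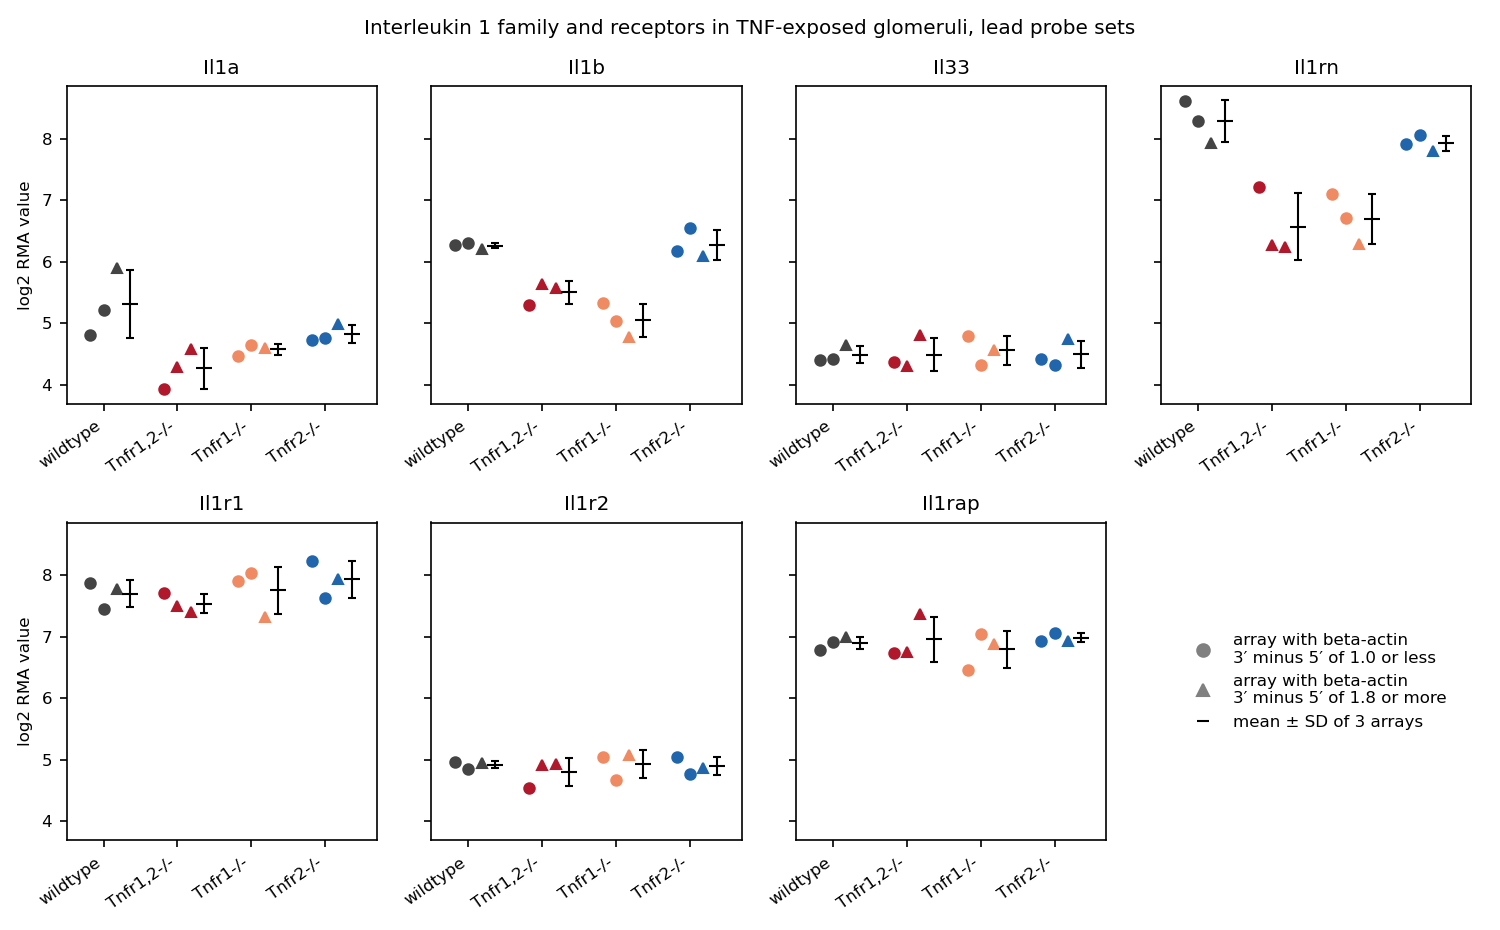
Each panel plots the log2 RMA value (y axis) of 1 gene on the 12 arrays by genotype (x axis), with circles and triangles for the 2 array sets and a bar for the mean ± SD of 3 arrays. The *Tnfr1,2*-/- and *Tnfr1*-/- arrays of Il1b lie between 4.77 and 5.63 and all wildtype and *Tnfr2*-/- arrays at 6.09 or more, whereas the genotypes overlap for Il33, Il1r1, Il1r2 and Il1rap.

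Il1b, the gene of the secreted ligand that needs cleavage to become active, followed the *Tnfr1* genotype. In wildtype glomeruli its log2 values were 6.28, 6.30 and 6.21, and in *Tnfr2*-/- glomeruli 6.18, 6.55 and 6.09. In *Tnfr1*-/- glomeruli they were 5.32, 5.04 and 4.77, and in *Tnfr1,2*-/- glomeruli 5.29, 5.63 and 5.58. All 6 arrays without *Tnfr1* were therefore below all 6 arrays with it, as was the case for Il1a and Il1rn. The share of all genes separated in this way was not counted. The Il1b values without *Tnfr1* also lay under 6, in the low range of the array. From the lowest mean, the order was *Tnfr1*-/- (5.05 ± 0.27, SD, n = 3), *Tnfr1,2*-/- (5.50 ± 0.18), wildtype (6.26 ± 0.05) and *Tnfr2*-/- (6.27 ± 0.24). Neighbours in this order did not differ past the threshold: *Tnfr1,2*-/- exceeded *Tnfr1*-/- by 0.45 (95% confidence interval 0.07 to 0.83, adjusted p = 0.919), *Tnfr1,2*-/- differed from wildtype by -0.76 (-1.14 to -0.38, adjusted p = 0.0681), and wildtype and *Tnfr2*-/- differed by 0.01 (-0.37 to 0.39, adjusted p = 1).

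*Tnfr1*-/- glomeruli held less Il1b transcript than wildtype, with a log2 change of -1.22 (2.32-fold, 95% confidence interval -1.59 to -0.84, adjusted p = 0.0047). The 1.7-fold lower mean in *Tnfr1,2*-/- glomeruli missed the threshold in the reported fit and was called by significance analysis of microarrays (SAM). *Tnfr2*-/- glomeruli had 1.23 more Il1b on the log2 scale than *Tnfr1*-/- glomeruli (adjusted p = 0.00391). The calls in *Tnfr1*-/- against wildtype and in *Tnfr2*-/- against *Tnfr1*-/- held under all 25 alternatives that gave Il1b a value. Within the array sets, Il1b differed from wildtype by -1.11 and -1.43 in *Tnfr1*-/- and by -1 and -0.60 in *Tnfr1,2*-/- glomeruli. With the array set as a block the *Tnfr1,2*-/- difference became -0.72 with adjusted p = 0.0497.

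Il1a encodes the ligand that is active without cleavage. Its values were 4.80, 5.22 and 5.90 in wildtype, 4.73, 4.76 and 4.99 in *Tnfr2*-/-, 3.92, 4.29 and 4.58 in *Tnfr1,2*-/- and 4.47, 4.65 and 4.6 in *Tnfr1*-/- glomeruli. No array reached 6, so all Il1a values lie in the low range of the array. The *Tnfr1,2*-/- and *Tnfr1*-/- arrays (4.65 at most) were all below the wildtype and *Tnfr2*-/- arrays (4.73 at least). The *Tnfr2*-/- arrays overlapped those of wildtype. The log2 change from wildtype was -1.04 for *Tnfr1,2*-/- (95% confidence interval -1.59 to -0.49, adjusted p = 0.0918), -0.73 for *Tnfr1*-/- (-1.28 to -0.18, adjusted p = 0.381) and -0.48 for *Tnfr2*-/- glomeruli (-1.03 to 0.07, adjusted p = 1), none past the threshold. In the order *Tnfr1,2*-/-, *Tnfr1*-/-, *Tnfr2*-/- and wildtype no neighbours differed past the threshold. The *Tnfr1,2*-/- difference passed with the array set as a block (-1.18, adjusted p = 0.00431) and without wildtype replicate 1 (-1.29, adjusted p = 0.0332), and within the 2 sets it was -1.09 and -1.46. The within-set difference from wildtype was -0.44 and -1.3 for *Tnfr1*-/- and -0.26 and -0.91 for *Tnfr2*-/- glomeruli. In these last 2 genotypes the second set holds 1 array of the mutant and 1 of wildtype.

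Il33 was flat. Its values ranged from 4.40 to 4.65 in wildtype, 4.32 to 4.74 in *Tnfr2*-/-, 4.30 to 4.80 in *Tnfr1,2*-/- and 4.31 to 4.79 in *Tnfr1*-/- glomeruli, below 6 on every array. The 95% confidence interval of the change from wildtype was -0.40 to 0.40 for *Tnfr1,2*-/-, -0.33 to 0.47 for *Tnfr1*-/- and -0.40 to 0.40 for *Tnfr2*-/- glomeruli, which in each case leaves out a 1.5-fold change (0.585 on the log2 scale). At this signal the array may not register a difference in a transcript near background.

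Il1rn, the receptor antagonist, had the largest change of the 7 genes. Its values were 8.62, 8.30 and 7.94 in wildtype and 7.91, 8.06 and 7.81 in *Tnfr2*-/- glomeruli. They were 7.21, 6.27 and 6.24 in *Tnfr1,2*-/- and 7.10, 6.71 and 6.29 in *Tnfr1*-/- glomeruli, again with all arrays without *Tnfr1* below all arrays with it. The order of the means was *Tnfr1,2*-/- (6.57 ± 0.55, SD, n = 3), *Tnfr1*-/- (6.70 ± 0.40), *Tnfr2*-/- (7.92 ± 0.12) and wildtype (8.29 ± 0.34). No neighbours in this order passed the threshold, neither *Tnfr1,2*-/- and *Tnfr1*-/- (difference -0.13, -0.75 to 0.49, adjusted p = 0.942) nor *Tnfr2*-/- and wildtype (-0.36, -0.98 to 0.26, adjusted p = 1).

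Both genotypes without *Tnfr1* held less Il1rn transcript than wildtype. The log2 change was -1.72 for *Tnfr1,2*-/- (3.28-fold, 95% confidence interval -2.34 to -1.09, adjusted p = 0.0101) and -1.59 for *Tnfr1*-/- (3-fold, -2.21 to -0.96, adjusted p = 0.0188). It was also lower in *Tnfr1,2*-/- than in *Tnfr2*-/- glomeruli (-1.35, -1.98 to -0.73, adjusted p = 0.0424), a call that was lost in 8 of the 12 fits with 1 array left out (adjusted p = 0.0534 to 0.2). The difference between *Tnfr2*-/- and *Tnfr1*-/- was 1.22 (0.60 to 1.85, adjusted p = 0.0762), and it passed with the replicate number as a block (adjusted p = 0.00382). Within the array sets the difference from wildtype was -1.25 and -1.68 in *Tnfr1,2*-/- and -1.56 and -1.65 in *Tnfr1*-/- glomeruli, and as a block the array set left both calls in place.

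The calls of Il1rn against wildtype rested on several single arrays. In *Tnfr1,2*-/- glomeruli the call depended on wildtype replicate 1 (adjusted p = 0.0582 when it was left out), wildtype replicate 2 (0.0576) and *Tnfr1,2*-/- replicate 2 (0.058). In *Tnfr1*-/- glomeruli it depended on wildtype replicates 1 (0.0906) and 2 (0.0932) and *Tnfr1*-/- replicates 2 (0.0677) and 3 (0.0707). The log2 change stayed between -2.03 and -1.55 and between -1.79 and -1.38, respectively, when any array was left out.

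**Figure D2:**
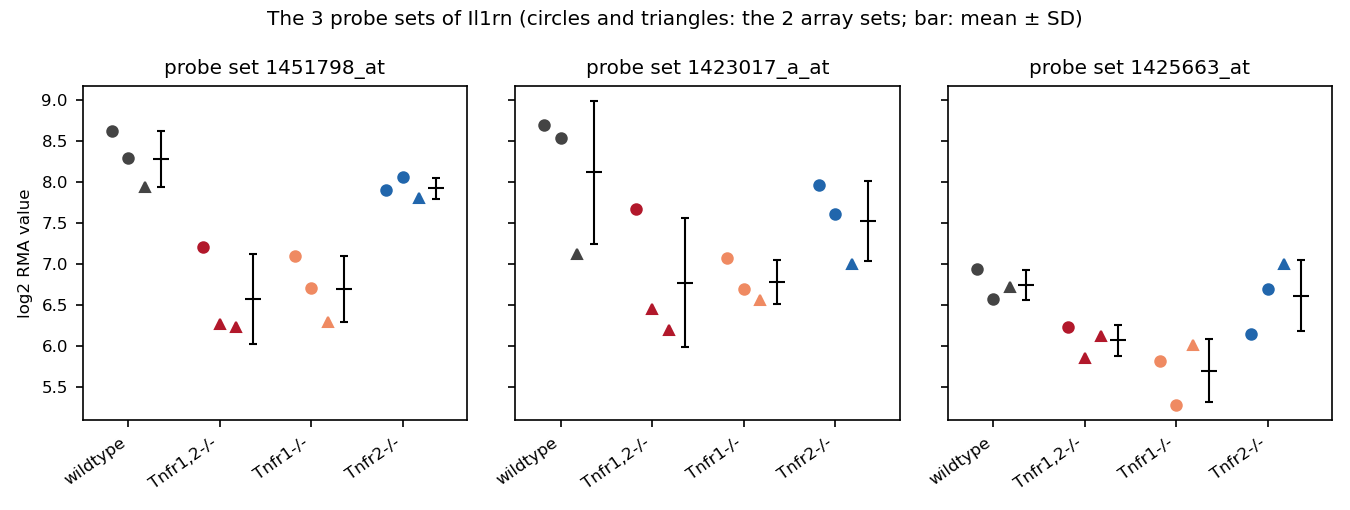
The panels plot the log2 RMA values (y axis) of the 3 probe sets of Il1rn, the lead probe set first, on the 12 arrays by genotype (x axis), with circles and triangles for the 2 array sets and a bar for the mean ± SD of 3 arrays. In the left and right panels no *Tnfr1*-/- array reaches the wildtype arrays, while wildtype replicate 3 in the middle panel, at 7.12, lies below *Tnfr1,2*-/- replicate 1, at 7.68.

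Il1rn was the only member with a called change and more than 1 probe set, and its 3 probe sets differed in size. Besides the lead probe set, the second gave log2 changes of -1.34 in *Tnfr1,2*-/- and -1.34 in *Tnfr1*-/- glomeruli (adjusted p = 0.355 and 0.382 when it stood for the gene). The third gave -0.68 and -1.05 (adjusted p = 0.382 and 0.0732). All 3 were lower in both genotypes, and neither of the other 2 passed in a comparison with wildtype; for *Tnfr1* loss over both *Tnfr2* genotypes the third passed (-0.80) and the second did not (-1.05, adjusted p = 0.165). On the second probe set the wildtype values were 8.70, 8.54 and 7.12, and the array at 7.12 is replicate 3, which belongs to the array set with the wide beta-actin gap. Whether the probe sets read different Il1rn transcripts was not tested.

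The receptor genes stayed level. Il1r1, the signalling receptor, ranged from 7.45 to 7.87 in wildtype, 7.63 to 8.23 in *Tnfr2*-/-, 7.40 to 7.71 in *Tnfr1,2*-/- and 7.32 to 8.04 in *Tnfr1*-/- glomeruli, above 6 on all 12 arrays. Its log2 change from wildtype was -0.16 (95% confidence interval -0.63 to 0.32) for *Tnfr1,2*-/-, 0.06 (-0.42 to 0.53) for *Tnfr1*-/- and 0.24 (-0.24 to 0.71) for *Tnfr2*-/- glomeruli. The *Tnfr1,2*-/- and *Tnfr2*-/- intervals reach past 1.5-fold and the *Tnfr1*-/- interval does not. Its second probe set was at 2.36 to 2.57 on every array.

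Il1rap, the shared accessory protein, ranged from 6.79 to 6.99 in wildtype, 6.94 to 7.07 in *Tnfr2*-/-, 6.73 to 7.38 in *Tnfr1,2*-/- and 6.46 to 7.04 in *Tnfr1*-/- glomeruli. Its changes from wildtype, for *Tnfr1,2*-/-, *Tnfr1*-/- and *Tnfr2*-/- in turn, were 0.06 (-0.37 to 0.49), -0.10 (-0.53 to 0.33) and 0.08 (-0.35 to 0.51), all intervals within 1.5-fold. None of its 5 probe sets passed the threshold in any comparison. The decoy receptor Il1r2 stayed between 4.53 and 5.07 on the 12 arrays, with changes in the same order of -0.12 (-0.47 to 0.22), 0.01 (-0.33 to 0.36) and -0.02 (-0.36 to 0.32), and no array reached 6.

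**Figure D3:**
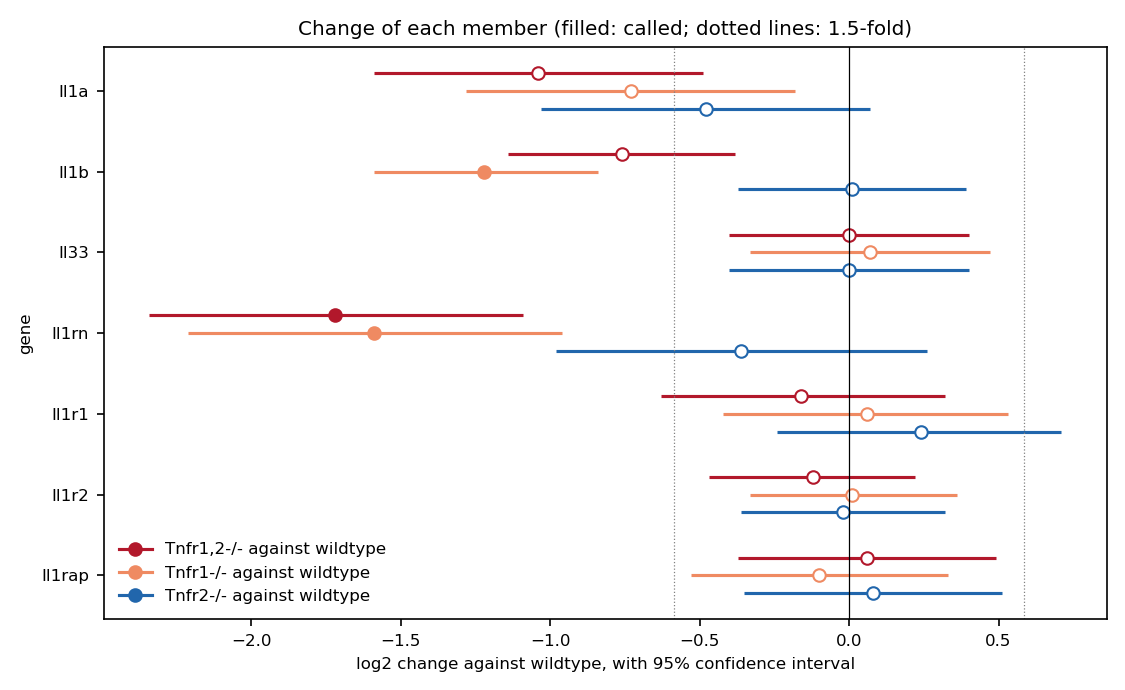
The plot gives the log2 change against wildtype (x axis) of each gene (y axis) in *Tnfr1,2*-/-, *Tnfr1*-/- and *Tnfr2*-/- glomeruli, with its 95% confidence interval; filled points passed an adjusted p of 0.05 and 1.5-fold, which the dotted lines mark. The filled points are Il1rn in *Tnfr1,2*-/- (-1.72) and *Tnfr1*-/- (-1.59) and Il1b in *Tnfr1*-/- (-1.22) glomeruli, all to the left of 0.

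The threshold for a call was 1.5-fold together with an adjusted p below 0.05. By this rule 1 of 7 members was lower in *Tnfr1,2*-/- than in wildtype glomeruli (Il1rn) and 0 were higher, where 0.879% of all genes were called lower and 0.418% higher. In *Tnfr1*-/- glomeruli 2 of 7 were lower (Il1b and Il1rn) and 0 higher, where 0.72% and 0.484% of all genes were. The median log2 change of the 7 was -0.16 and -0.10, beside 0 for all genes in both. The 3 arrays of the mutant lay wholly below those of wildtype for 3 of 7 members in *Tnfr1,2*-/- (5.77% of all genes) and in *Tnfr1*-/- glomeruli (5.51%), in both cases Il1a, Il1b and Il1rn, and wholly above for 0 (6.61% and 5.5%). These comparisons share the wildtype arrays, so they are not independent of each other.

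In *Tnfr2*-/- against wildtype, limma called 0 of 7 members and 0% of all genes, with 0 members at an unadjusted p under 0.05 against 0.704% of all genes, and SAM called 0 members. Limma did not call the targeted gene Tnfrsf1b there either (-2.3, adjusted p = 0.125), so the absence of a call does not show the absence of a change. Arrays that did not overlap were found for 0 members, against 2.62% of all genes lower and 2.32% higher. In *Tnfr1,2*-/- against *Tnfr1*-/-, limma and SAM called 0 of 7 members (limma 0.0055% of all genes), and 1 member, Il1b, had an unadjusted p under 0.05, against 2.59% of all genes. No member's arrays were separate there (2.14% of all genes lower and 2.46% higher). In *Tnfr1,2*-/- against *Tnfr2*-/- glomeruli 1 of 7 was called lower (Il1rn; 1.04% of all genes) and 0 higher (0.346%). In *Tnfr2*-/- against *Tnfr1*-/- glomeruli 1 of 7 was called higher (Il1b; 0.846% of all genes) and 0 lower (0.357%). Il1a, Il1b and Il1rn, 3 of 7, did not overlap in either, lower in the first (5.62% of all genes) and higher in the second (5.68%), and 0 members did so in the opposite direction (6.24% and 4.63%).

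The effect of each receptor was then estimated over both genotypes of the other. *Tnfr1*-/- minus wildtype and *Tnfr1,2*-/- minus *Tnfr2*-/- share no array, and both gave lower values for the 3 genes. The log2 difference in the former and the latter was -1.22 and -0.77 for Il1b, -1.59 and -1.35 for Il1rn, and -0.73 and -0.56 for Il1a. Over both, the log2 change with *Tnfr1* loss was -0.99 for Il1b (1.99-fold, 95% confidence interval -1.26 to -0.73, adjusted p = 0.000637) and -1.47 for Il1rn (2.77-fold, -1.91 to -1.03, adjusted p = 0.00141). Il1a changed by -0.65 (-1.04 to -0.26, adjusted p = 0.0991), which missed the threshold, but passed with the replicate number (adjusted p = 0.0093) or the array set (0.00566) as a block, giving 3 of 7, and without wildtype replicate 1 (-0.77, adjusted p = 0.0311). In the fit without a block 2 of 7 members were called lower and 0 higher, against 1.59% and 0.929% of all genes, and Il33, Il1r1, Il1r2 and Il1rap had changes between -0.17 and 0.03.

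Loss of *Tnfr2* over both *Tnfr1* genotypes called 0 of 7 members in limma (0.0275% of all genes in either direction). Its log2 change was 0.23 for Il1b (-0.04 to 0.50), -0.25 for Il1rn (-0.69 to 0.20) and -0.39 for Il1a (-0.78 to 0, unadjusted p = 0.0479, adjusted p = 1), the only member at an unadjusted p under 0.05. The interaction of both losses, which tests whether the change with *Tnfr1* loss differed by *Tnfr2* genotype, was 0.44 for Il1b (-0.09 to 0.98), 0.23 for Il1rn (-0.65 to 1.11) and 0.17 for Il1a (-0.61 to 0.95). It was called for 0 members and for 0% of all genes in limma, with 0 members and 1.35% of all genes at an unadjusted p under 0.05, so these intervals allow differences in either direction.

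**Figure D4:**
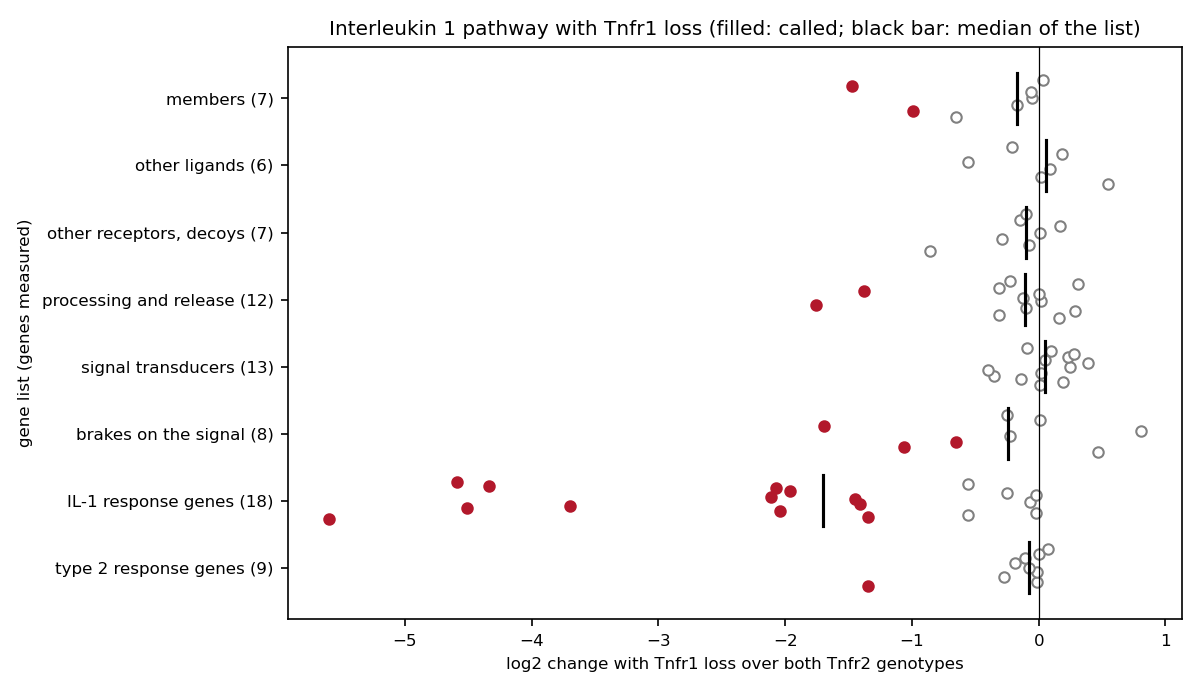
The plot gives the log2 change with *Tnfr1* loss over both *Tnfr2* genotypes (x axis) of each gene of the pathway lists (y axis, with the number of genes measured); filled points passed the threshold and the black bar is the median of the list. The IL-1 response genes have the lowest median (-1.70), and the signal transducers, with a median of 0.05, have no filled point.

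The other genes of the pathway were counted by role. Of 6 other ligands (IL-18, the IL-36 group and IL-38), limma and SAM called 0 in any comparison. At most 1 had an unadjusted p under 0.05, in comparisons where 5.96% to 11% of all genes did. The changes of these ligands with *Tnfr1* loss ran from -0.56 to 0.55, with a median of 0.05. The smallest adjusted p among them was that of Il1f6, which encodes IL-36 alpha (adjusted p = 0.242). Il1f5, Il1f8, Il1f9 and Il1f10 lay below 6 on every array, where the array may not register a difference. Of 7 other receptors and decoys limma called 0 in any comparison. At most 2 had an unadjusted p under 0.05, for *Tnfr1* loss (11% of all genes). SAM called 1 of them, Il18bp, whose product binds and neutralises IL-18, in *Tnfr1,2*-/- against wildtype and against *Tnfr2*-/- glomeruli. Its log2 change was -1.05 in *Tnfr1,2*-/- against wildtype (limma adjusted p = 0.241) and -0.86 upon *Tnfr1* loss (adjusted p = 0.0787). The former passed in limma on the 6 arrays alone (0.0225), with array weights (0.0192), with the replicate block (0.0409) and without *Tnfr1*-/- replicate 2 (0.0119), and the latter with array weights (0.00795), with the replicate block (0.0123), with the array set block (0.0342) and without *Tnfr1*-/- replicate 2 (0.000929). Among the other receptors and decoys, Il18r1, Il1rapl1 and Il1rapl2 also lay below 6 on every array. Of 13 signal transducers from Myd88 to Peli2, all with signals above 6 on every array, limma and SAM called 0. At most 3 had an unadjusted p under 0.05, in *Tnfr1,2*-/- against *Tnfr2*-/- (8.54% of all genes) and for *Tnfr1* loss (11%). Their changes with *Tnfr1* loss lay between -0.40 and 0.39, and Peli2, a ubiquitin ligase of the IRAK complex, had the smallest adjusted p (0.0543).

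Genes that restrain the signal included some of the called ones. Of 8 measured, 3 were lower with *Tnfr1* loss and 0 higher, beside 1.59% and 0.929% of all genes. The changes of the 8 ran from -1.69 to 0.81, with a median of -0.24. The highest were those of Socs3 (0.81, adjusted p = 0.116) and Dusp1 (0.47, adjusted p = 0.062), neither called. Among the 3, Irak3 missed the threshold with the mean of its probe sets (-1.04, adjusted p = 0.277). Tnfaip3, which encodes the deubiquitinase A20, averaged 11.50 ± 0.20 in wildtype, 11.57 ± 0.20 in *Tnfr2*-/-, 9.53 ± 0.38 in *Tnfr1,2*-/- and 10.17 ± 0.47 in *Tnfr1*-/- glomeruli (SD, n = 3). Against wildtype its log2 change was -1.97 (adjusted p = 0.00186) in *Tnfr1,2*-/- and -1.34 (adjusted p = 0.0233) in *Tnfr1*-/- glomeruli, and the latter call was lost without wildtype replicate 1 or 2 or *Tnfr1*-/- replicate 1 or 3 (adjusted p = 0.084 to 0.121), with the mean of its probe sets (0.193) and on the 6 arrays alone (0.0924). Irak3, which encodes the inhibitory kinase IRAK-M, and Nfkbia, which encodes IκBα, fell in *Tnfr1,2*-/- glomeruli by 1.30 (adjusted p = 0.0098) and by 0.72 (adjusted p = 0.035), and in *Tnfr1*-/- glomeruli their changes were -0.73 (adjusted p = 0.224) and -0.61 (adjusted p = 0.083; 0.0314 with the replicate block). In 9 of the 12 fits that left out 1 array the Nfkbia call was lost (adjusted p = 0.0555 to 0.146), all but those without a *Tnfr1*-/- array, and also with all probe sets (0.0549), the mean of its probe sets (0.108) and the 6 arrays alone (0.123). The Irak3 call was lost without wildtype replicate 1 (adjusted p = 0.0574) or 2 (0.0628), and with the mean of its probe sets (0.429).

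Of 12 genes for the processing and release of IL-1, 2 fell with *Tnfr1* loss and 0 rose, beside 1.59% and 0.929% of all genes. Gsdmd, whose product gasdermin D forms the pore through which IL-1β leaves the cell, averaged 9.14 ± 0.12 (SD, n = 3) in wildtype and 9.29 ± 0.24 in *Tnfr2*-/- against 7.75 ± 0.40 in *Tnfr1,2*-/- and 7.92 ± 0.27 in *Tnfr1*-/- glomeruli. It fell by 1.40 (adjusted p = 0.00616) and 1.23 (adjusted p = 0.0169) against wildtype, the latter a call lost without any 1 wildtype array or *Tnfr1*-/- replicate 2 or 3 (adjusted p = 0.05 to 0.0819, the lowest rounded). Casp4, the inflammatory caspase that cleaves gasdermin D, had changes of -1.83 (adjusted p = 0.0615) and -1.67 (adjusted p = 0.0971), which passed with the replicate block (0.00165 and 0.00354) and, for *Tnfr1,2*-/-, in SAM, and it passed for *Tnfr1* loss over both *Tnfr2* genotypes (-1.76, adjusted p = 0.00504). The other 10, with the inflammasome genes Casp1, Nlrp3, Pycard and Aim2 among them, had changes with *Tnfr1* loss of -0.31 to 0.31. Of these, Casp1, Aim2, Ctsg and Elane lay below 6 on every array, where the array may not register a difference.

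The genes known to respond to IL-1, most of which also respond to TNF, had the lowest median of these lists. Compared to wildtype, 9 of 18 were lower without both receptors, 10 without *Tnfr1* and 0 without *Tnfr2*, and 12 with *Tnfr1* loss over both *Tnfr2* genotypes, with medians of -1.57, -1.56, 0.13 and -1.70. Of all genes, 0.879%, 0.72%, 0% and 1.59% were called lower in these 4 comparisons. None of the 18 was called higher in them, and in *Tnfr2*-/- against wildtype SAM called 0 and limma had 0 at an unadjusted p under 0.05. Ccl2, a monocyte chemokine, averaged 12.54 ± 0.20 in wildtype, 12.51 ± 0.41 in *Tnfr2*-/-, 6.87 ± 0.38 in *Tnfr1,2*-/- and 6.97 ± 0.79 in *Tnfr1*-/- glomeruli, a fall of 5.67 and of 5.56 in the latter 2 against wildtype. Icam1, a leukocyte adhesion molecule, fell by 3.92 and 3.34, and Cxcl2, a neutrophil chemokine, by 4.69 and 4.27. Of 9 genes of the type 2 response downstream of IL-33, 1 fell with *Tnfr1* loss, beside 1.59% of all genes. It was Arg1, the arginase of alternatively activated macrophages (-1.35, adjusted p = 0.00871). Among the 9 genes only Ccl24 and Arg1 reached 6 on any array. Arg1 did so on 3 of the 12 arrays, with a mean of 5.26. Against wildtype limma gave -1.25 in *Tnfr1,2*-/- (adjusted p = 0.166) and -1.43 in *Tnfr1*-/- glomeruli (adjusted p = 0.0877), neither called, while SAM called the former and the array set block (0.0385) and leaving out *Tnfr1*-/- replicate 1 (0.017) the latter.

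Macrophages and neutrophils are main sources of IL-1 in tissue. In bulk RNA, fewer cells of a type and less transcript per cell cannot be told apart. Of 12 macrophage markers, limma and SAM called 0 in any comparison. At most 3 had an unadjusted p under 0.05, in *Tnfr1,2*-/- against *Tnfr2*-/- (8.54% of all genes). The summed linear signal of the 12 ranged from 5630 to 8710 in wildtype, 5650 to 11000 in *Tnfr2*-/-, 3720 to 5670 in *Tnfr1,2*-/- and 4310 to 10400 in *Tnfr1*-/- glomeruli. Lyz2 (lysozyme) averaged 11.84 ± 0.33, 11.78 ± 0.48, 10.95 ± 0.50 and 11.42 ± 0.39 in the same order, and C1qb, a complement component, 9.17 ± 0.75, 9.46 ± 0.97, 8.62 ± 0.66 and 9.57 ± 1.32. The summed signal of the 7 neutrophil markers was 217 to 276, 221 to 308, 135 to 185 and 156 to 182, with the genotypes without *Tnfr1* below the others. The median log2 change of the 7 with *Tnfr1* loss was 0.01, and S100a9 averaged 4.21 in wildtype against 4.57 in *Tnfr1,2*-/- and 4.37 in *Tnfr1*-/- glomeruli. Of these 7, Camp, a granule peptide, was called lower in *Tnfr1,2*-/- and *Tnfr1*-/- glomeruli, Camp and S100a8 passed with *Tnfr1* loss (-1.78 and -1.22), and all 7, the receptor gene Csf3r among them, had a mean over the 12 arrays under 6. The summed linear marker signal of resident cells also differed, a sum in which the brightest genes weigh most. That of podocytes was 15100 to 18300 in wildtype, 12600 to 19300 in *Tnfr2*-/-, 21300 to 24500 in *Tnfr1,2*-/- and 10600 to 25000 in *Tnfr1*-/- glomeruli, so *Tnfr1,2*-/- lay wholly above wildtype. That of endothelium was 4110 to 5450, 5830 to 7810, 5260 to 7350 and 6140 to 8650 in this order, so *Tnfr2*-/- and *Tnfr1*-/- lay wholly above wildtype. Mesangial sums were 9900 to 14300, 11400 to 14600, 14300 to 22300 and 14000 to 15600, and those of lymphocytes, mast cells and tubular epithelium overlapped wildtype in every mutant. Of the podocyte markers, Podxl, Wt1 and Synpo lay wholly above wildtype in *Tnfr1,2*-/- glomeruli, as did 6.61% of all genes. Nphs1 (7.86 to 8.74 in wildtype, 8.07 to 9.17 in *Tnfr1,2*-/-) and Cdkn1c overlapped. Limma and SAM called none of the lymphocyte, mast cell, podocyte and tubular markers. At most 2 of a list had an unadjusted p under 0.05. These were mast cell markers in *Tnfr1,2*-/- against *Tnfr2*-/- (8.54% of all genes) and tubular markers in *Tnfr1*-/- against wildtype (6.35%). Of the 8 endothelial markers, 4, 5 and 4 had an unadjusted p under 0.05 in *Tnfr1,2*-/-, *Tnfr1*-/- and *Tnfr2*-/- against wildtype. Of all genes, 8.44%, 6.35% and 0.704% did. In limma the endothelial marker Kdr (1.09) and the mesangial marker Itga8 (1.40) were called higher in *Tnfr1*-/- than in wildtype glomeruli. SAM did not call Kdr there and called Itga8 in *Tnfr1,2*-/- and *Tnfr1*-/- against wildtype. With *Tnfr1* loss limma called Itga8 (0.98). The part of any of these cell types in the Il1b and Il1rn values was not tested.

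Likeness of pattern was measured by Pearson's r of the log2 values over the 12 arrays, which share their preparation and normalisation, and is given as a description. The genes most like Il1b were Ifitm1 (r = 0.966), Rgs19 (r = 0.958) and the chemokine gene Ccl7 (r = 0.941). Those most like Il1rn were Dtx4 (r = 0.963), Gng12 (r = 0.951) and Ppp1r14a (r = 0.948). Il1b and Il1rn themselves had r = 0.82, against 0.55 for Il1a with Il1b and 0.52 for Il1a with Il1rn. For the genes that stayed level the nearest were Gpr173 for Il33 (r = 0.922), Ece1 for Il1r1 (r = 0.908), 2310043L19Rik for Il1r2 (r = 0.933) and Cyp2j6 for Il1rap (r = 0.926), and for Il1a 2610307P16Rik (r = 0.893).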

How the data were processed

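Total RNA of 12 glomerular cultures was hybridised to Affymetrix Mouse Genome 430 2.0 arrays. Per the methods, the authors normalised all 12 arrays together by robust multichip average (RMA Express 1.0 beta 2), and the log2 values they deposited entered the tests without further normalisation. Of 45101 probe sets, 34958 had 1 gene symbol, 932 several and 9211 none in the platform annotation, and the last 2 kinds were left out. The number of arrays limits the precision.

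For each of 18194 genes the brightest probe set, by its mean over 12 arrays, stood for the gene. limma 3.58.1 (R 4.3.3; lmFit, contrasts.fit, eBayes without trend, 8 residual degrees of freedom) was fitted to all 12 arrays, with Benjamini-Hochberg adjustment over all genes, and calls needed 1.5-fold together with an adjusted p below 0.05. The models were tested on simulated data. The 6 pairwise comparisons, the loss of each receptor over both genotypes of the other and their interaction were tested. Nothing states whether preparations came from different mice, so p-values measure the spread between these preparations.

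The replicate numbers were checked as pairs by the correlation of deviations from the group means. The correlation was over 0.1 for every pair in *Tnfr1*-/- and *Tnfr2*-/- against wildtype and in *Tnfr2*-/- against *Tnfr1*-/-. In comparisons with *Tnfr1,2*-/- the replicate 2 pairs fell short (-0.13 with wildtype, -0.229 with *Tnfr1*-/- and -0.0046 with *Tnfr2*-/-). The replicate 1 and 3 pairs there gave 0.424 to 0.613. Replicate 2 of *Tnfr1,2*-/- is in the array set with the wide beta-actin gap, unlike the other replicate 2 arrays. The labels give no litter or day for the replicate numbers.

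Named genes are the members; up to 3 called genes per pathway list with the smallest adjusted p, or 1 where none was called; the 2 brightest markers of a cell type; the genes most like each member; and Tnfrsf1a and Tnfrsf1b. Of the markers, those of macrophages and neutrophils are given. S100a8, S100a9, Kdr, Itga8, Socs3, Dusp1, Ctsg, Elane, Ccl24 and the inflammasome genes were named after their values were seen. So were the podocyte markers and Il1f5, Il1f8, Il1f9, Il1f10, Il18r1, Il1rapl1 and Il1rapl2. The members and lists were chosen with earlier results of these data known. Il1f6 and its relatives were matched to current names through RefSeq synonyms. Alternatives were all probe sets, averaging the probe sets of a gene, SAM rewritten from its description, array weights, a mean-variance trend, fits on the 6 arrays of a comparison, other fold thresholds, median centring, cyclic loess, no dim probe sets, replicate and array set blocks, and each array left out; Il1rn on its other 2 probe sets was added after seeing the data. Figures were drawn with matplotlib 3.10.9 in Python 3.11.15.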

Additional observations from a re-analysis of the deposited data

How the results depend on the processing

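Among 27 other settings, counts of called members moved as follows. For *Tnfr1,2*-/- against wildtype (1 in the reported fit) SAM gave 2, the 6 arrays alone 0, and array weights, the replicate block and the array set block 3 each. For *Tnfr1*-/- against wildtype (2) the 6 arrays alone gave 1. For *Tnfr1,2*-/- against *Tnfr2*-/- (1) all probe sets, the mean of probe sets and the 6 arrays alone gave 0, and SAM, array weights, the replicate block and the array set block 2 each. For *Tnfr2*-/- against *Tnfr1*-/- (1) SAM, array weights, the replicate block and the array set block gave 2 each. For *Tnfr1* loss over both *Tnfr2* genotypes (2) a 2-fold threshold gave 1. Leaving out 1 array gave 0 to 1, 1 to 2, 0 to 2, 1 to 2 and 2 to 3 in these 5, and 0 throughout in *Tnfr2*-/- against wildtype, *Tnfr1,2*-/- against *Tnfr1*-/-, *Tnfr2* loss and the interaction. With 1 array left out, a group of 2 was assumed to vary like the others.

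With the replicate block, which raised the count to 3 in *Tnfr1,2*-/- against wildtype and to 2 in *Tnfr1,2*-/- against *Tnfr2*-/- and in *Tnfr2*-/- against *Tnfr1*-/-, the added genes were Il1a (adjusted p = 0.00717) and Il1b (0.0275), Il1b (0.0236) and Il1rn (0.00382). Of the 12 arrays, 8 correlated best with their own number. Because the replicate 3 arrays all lie in the array set with the wide beta-actin gap, this may follow the array sets, and pairing was not established. For *Tnfr1* loss the replicate block added Il1a (0.0093), as did the array set block (0.00566), and the replicate block changed no other call of a member. The array set block called 243 genes lower against 160 in *Tnfr1,2*-/- against wildtype and 258 against 131 in *Tnfr1*-/- against wildtype, the replicate block 328 and 240, array weights 455 and 198, and the 6 arrays alone 115 and 60.

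Of 2700 values of named genes under these settings, 0 changed sign where either value was called; 156 changed sign where neither was, all with a change of at most 0.37. The call of Il1rn in *Tnfr1,2*-/- against *Tnfr2*-/- held in 14 of 27 settings, in *Tnfr1,2*-/- against wildtype in 21 of 27, in *Tnfr1*-/- against wildtype in 20 of 27 and for *Tnfr1* loss in 24 of 25, and the cause was not tested. Leaving out dim probe sets (a log2 value of at least 6 on at least 3 arrays) left 4 of 7 members, Il1b, Il1rn, Il1r1 and Il1rap, since the signals of Il1a, Il33 and Il1r2 lie under that level.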
